A study of Homo sapiens with 6 samples.

Results

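The genes described here are 36 genes of the unfolded protein response of the endoplasmic reticulum (ER), chosen by name: 5 stress sensors and transcription factors, 10 chaperones and cofactors, 5 oxidoreductases, 3 genes of the lectin chaperone cycle, 11 genes of ER-associated degradation, and 2 genes of protein import into and export from the ER. They were 36 of 78932 gene IDs in the deposited table, and all 36 were among the 16091 genes with enough reads to be tested. The study sequenced RNA of A549, a human lung adenocarcinoma cell line, in 3 libraries from cells overexpressing HIF-1β (OE) and in 3 libraries labelled wild type (WT). HIF-1β, encoded by ARNT, is the constitutive partner of the hypoxia-inducible factors. Both groups carry the treatment label of a transfection, with no further detail on vector, duration or clone, and both were kept in RPMI medium with serum, glutamine and antibiotics.

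The libraries labelled wild type go against their label of A549. Levels are given as CPM, which are counts relative to the library total after scaling by TMM, the trimmed mean of M values. ARNT measured 141, 146 and 130.0 CPM in the OE libraries, against 39.0, 50.04 and 42.2 CPM in the WT-labelled libraries. MTAP, which is homozygously deleted in A549, measured 0.17, 0.64 and 0.39 CPM in the OE libraries, against 79.9, 72.4 and 81.9 CPM in the WT-labelled libraries. SMARCA4, which carries an inactivating mutation in A549, averaged 15.6 ± 1.83 CPM in the OE libraries and 201 ± 4.33 CPM in the WT-labelled libraries (SD, n = 3 each). Keratin 7 (KRT7) averaged 1481 ± 94.6 CPM in the OE libraries and 9.45 ± 3.79 CPM in the WT-labelled libraries. TBXT, the notochord factor brachyury, had 3 reads in the OE libraries together and averaged 2076 ± 294 CPM in the WT-labelled libraries. In every comparison below, a difference between cell populations and an effect of HIF-1β overexpression cannot be told apart, and in bulk RNA fewer cells of a type and less RNA per cell cannot be told apart either.

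Markers of cell types moved with the groups as well. The sum of 8 epithelial markers was 7884 to 8651 CPM in the OE libraries and 2571 to 2794 CPM in the WT-labelled libraries, with 7 markers higher and KRT19 lower in OE. The sums of 8 fibroblast markers (8.37 to 9.06 CPM in OE, 12.7 to 17.4 CPM in WT), 8 leukocyte markers (35.4 to 42.0 CPM in OE, 15.9 to 16.5 CPM in WT) and 8 endothelial markers (2.74 to 3.28 CPM in OE, 0.0512 to 0.425 CPM in WT) were low. COL1A2, PTPRC, CD3E, CD4, NKG7, CDH5, KDR, CLDN5 and EMCN had no reads in any of the 6 libraries. The part of these markers in the results was not tested. Library totals were 17192161 to 24454236 counts.

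The ER folds secreted and membrane proteins, and unfolded chains in its lumen activate 3 membrane sensors. IRE1 (encoded by ERN1) splices the mRNA of XBP1, PERK (EIF2AK3) phosphorylates the initiation factor eIF2α and so favours translation of ATF4, and ATF6 is cut in the Golgi to release a transcription factor. Their targets include the chaperone BiP (HSPA5) and its helpers, the protein disulfide isomerases, the calnexin and calreticulin cycle for glycoproteins, and the machinery that returns misfolded chains to the cytosol for the proteasome. Gene-level counts give the amount of XBP1 mRNA and not its splicing, and they give no measure of the activity of a sensor.

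ATF6 and its partner NF-Y, and XBP1, are known to act on the ER stress element (ERSE), in which a CCAAT box and CCACG stand 9 bases apart. A related element, ERSE-II, holds the CCAAT box in the other orientation (ATTGG) and closer to CCACG. The sequences here are from RefSeq promoter windows on GRCh38.p14, reaching from 250 bases before to 50 bases after an annotated start, which is not always the outermost start of the gene. The stretch of 150 bases before the start of HSPA5 is shown because it is the textbook promoter of this response, and capitals mark CCAAT and CCACG (chr9:125241344-125241493, minus strand).

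HSPA5: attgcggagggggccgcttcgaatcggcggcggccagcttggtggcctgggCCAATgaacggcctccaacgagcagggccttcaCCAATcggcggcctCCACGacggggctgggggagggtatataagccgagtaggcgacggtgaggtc

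It held 2 CCAAT boxes and 1 CCACG, and 1 of the CCAAT boxes stood at the ERSE distance from CCACG. The exact ERSE (CCAAT, any 9 bases, CCACG), searched on both strands, was found in 8 of the 32 listed genes with a window (25%) and in 0.0916% of the 27305 genes with a window. The sites are shown 5′ to 3′ in the direction of the motif with 5 bases on each side, and capitals mark the defined bases.

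HSPA5 (chr9:125241386-125241414, minus strand): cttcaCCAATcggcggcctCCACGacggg
XBP1 (chr22:28800598-28800626, minus strand): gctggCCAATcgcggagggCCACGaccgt
HSP90B1, outer site (chr12:103930211-103930239, plus strand): cctgaCCAATcggaaggagCCACGcttcg
HSP90B1, inner site (chr12:103930316-103930344, minus strand): acccaCCAATcgcgccgcaCCACGcaccc
CRELD2 (chr22:49918549-49918577, minus strand): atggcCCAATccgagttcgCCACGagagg
PDIA6 (chr2:10812848-10812876, minus strand): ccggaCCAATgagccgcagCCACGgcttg
ERO1B (chr1:236282178-236282206, plus strand): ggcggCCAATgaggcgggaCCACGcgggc
CALR (chr19:12938379-12938407, minus strand): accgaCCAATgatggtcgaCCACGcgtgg
CANX (chr5:179698773-179698801, plus strand): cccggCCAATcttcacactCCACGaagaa

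ERSE-II (ATTGG, any 1 base, CCACG), searched on both strands, was found in 3 of the 32 genes (9.38%) and in 0.0696% of all genes with a window. HYOU1 held it at 2 places, and the 4 sites are shown in the same way.

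HYOU1, outer site (chr11:119057375-119057395, plus strand): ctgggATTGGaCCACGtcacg
HYOU1, inner site (chr11:119057269-119057289, plus strand): tactcATTGGaCCACGtccca
HERPUD1 (chr16:56932020-56932040, plus strand): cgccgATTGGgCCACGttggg
SDF2L1 (chr22:21642109-21642129, minus strand): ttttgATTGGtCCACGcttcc

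A match is a description of these letters and does not show binding. PDIA3, DERL1, DERL3 and SEC24D had no window.

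Most of the listed genes were lower in the OE libraries than in the WT-labelled libraries, and the decrease was uneven across roles. The list was chosen with earlier results of these data known. Of the 36 genes, 24 fell (66.7%) and 2 rose at an adjusted p under 0.05 (edgeR quasi-likelihood test, adjusted by Benjamini-Hochberg over the 16091 genes), and 10 did not pass. Over all tested genes 35.7% fell, 38.3% rose and 74.0% passed in either direction, so a call by itself sets a gene apart little in this comparison. The median log2 fold change (OE over WT) of the 36 genes was -0.44, beside 0.03 over all tested genes. 8 of the listed genes fell more than 2-fold, as did 14.5% of all tested genes, and none rose more than 2-fold, as did 23.2% of all tested genes. DERL3, counted among the 24 and the 8, had enough reads to be tested only through the WT-labelled libraries (48 reads, against 1 in OE). For 27 of the 36 genes the OE and WT libraries had separate ranges of CPM, as for 77.3% of all tested genes, and the OE libraries were the lower ones for 24 of these, as for 37.4% of all tested genes. Scaling by library totals alone raised the median of all tested genes by 0.11 on the log2 scale, and the median of the list was -0.48 from that of all tested genes under both scalings. A change of scaling moves every gene by nearly the same amount, so this distance could hardly differ and is no check of the result. The summed level of the 36 genes was 7389, 7697 and 7234 CPM in the OE libraries, against 11461, 12107 and 11142 CPM in the WT-labelled libraries, a 1.56-fold difference.

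**Figure D1:**
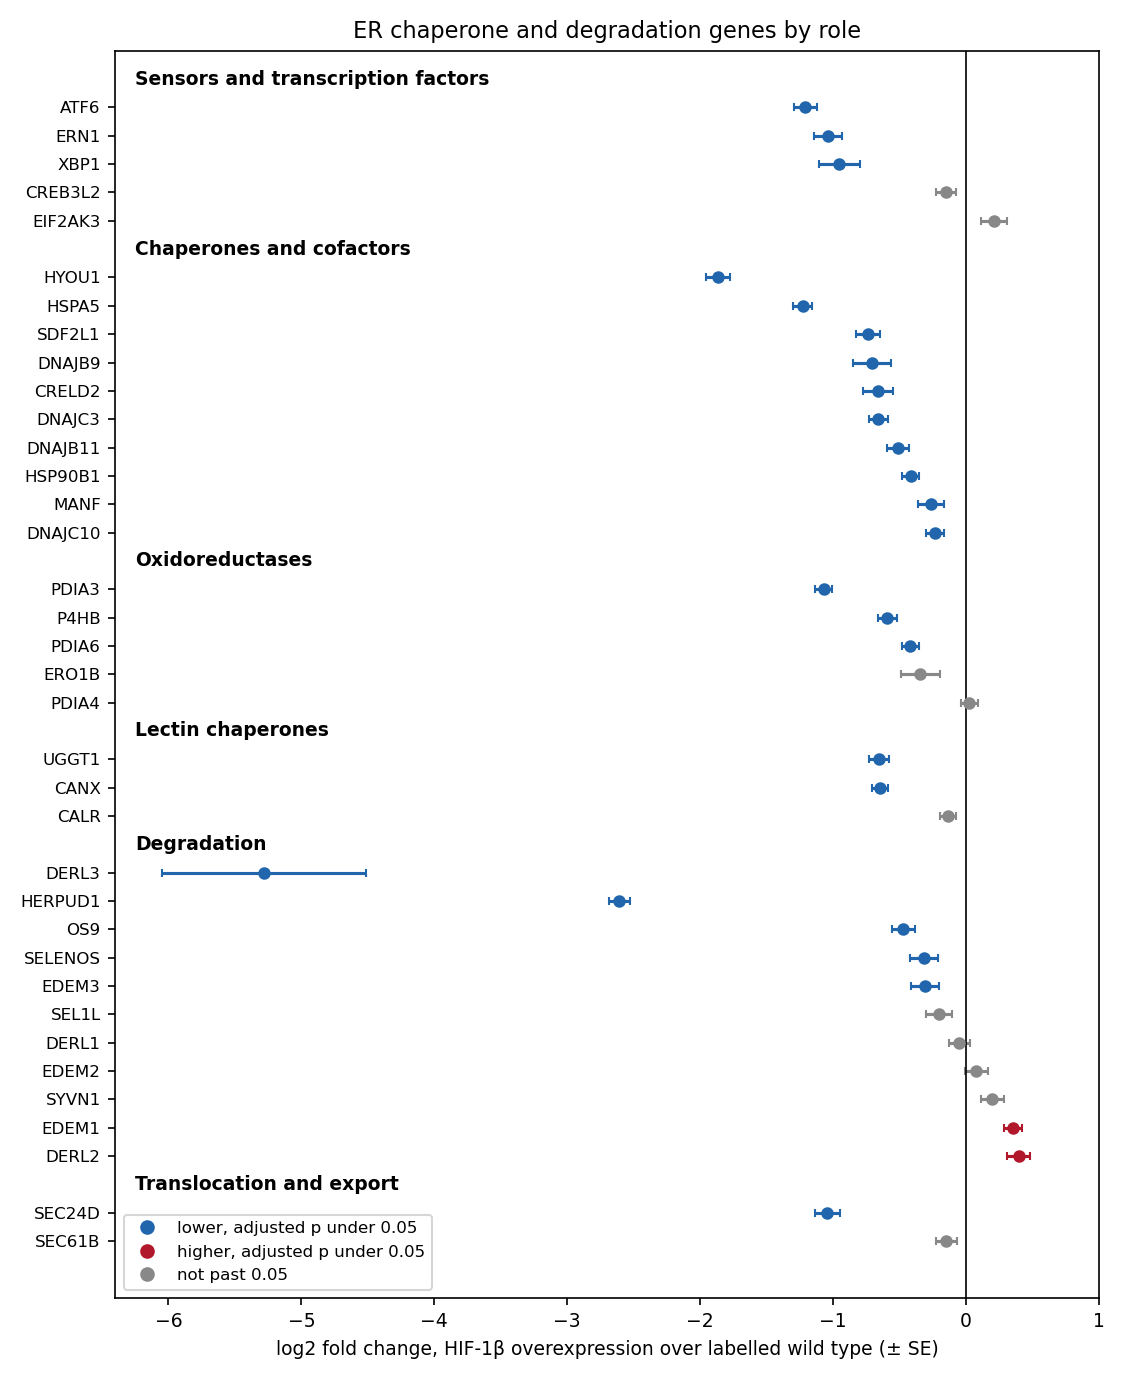
Log2 fold change (OE over the libraries labelled wild type) of each of the 36 listed genes with its standard error, grouped by role and coloured by the edgeR call. Of the 36 points 30 lie below 0, HERPUD1 and HYOU1 lie lowest among genes with ample reads, and EDEM1 and DERL2 are the genes called higher; the wide bar of DERL3 goes with its 49 reads in all libraries.

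Of the 5 sensors and transcription factors, 3 fell, none rose and 2 did not pass, beside 35.7% lower and 38.3% higher among all tested genes. Under scaling by library totals 3 fell and 1 rose. ATF6 (chr1:161766294-161964070, plus strand, GRCh38 with GENCODE positions as for all genes here), the sensor released by Golgi proteolysis, measured 52.8, 62.3 and 62.8 CPM in the OE libraries, against 141, 143 and 128 CPM in the WT-labelled libraries. Every OE library was below every library labelled wild type, and the log2 fold change was -1.21 (SE 0.09, adjusted p = 3.41e-07). ERN1 (chr17:64039142-64130819, minus strand), the kinase and endonuclease IRE1, measured 26.4, 27.3 and 21.3 CPM in the OE libraries, against 48.7, 55.3 and 50.1 CPM in the WT-labelled libraries. Its groups were apart too, at a log2 fold change of -1.04 (SE 0.10, adjusted p = 5.66e-06).

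XBP1 (chr22:28794555-28800597, minus strand), the transcription factor whose mRNA IRE1 splices, measured 99.5, 148 and 89.8 CPM in the OE libraries, against 205, 219 and 229 CPM in the WT-labelled libraries. The OE libraries varied more than the others, with replicate 2 the highest of them, yet all stayed below the lowest library labelled wild type; the log2 fold change was -0.95 (SE 0.15, adjusted p = 0.000215). EIF2AK3, encoding PERK, did not follow the other sensors: it measured 26.4, 30.1 and 26.1 CPM in the OE libraries, against 24.8, 25.02 and 21.5 CPM in the WT-labelled libraries. Its OE libraries were above the others with a narrow gap, and the log2 fold change of 0.21 (SE 0.10) did not pass (adjusted p = 0.0737); of the 12 alternatives it passed with library totals only (adjusted p = 0.0101), and their range was 0.0101 to 0.310. CREB3L2, an ATF6-like factor of the ER membrane, averaged 126 ± 7.11 CPM in the OE libraries and 140 ± 10.9 CPM in the WT-labelled libraries, with overlapping groups (adjusted p = 0.0987); it passed without OE replicate 2 (adjusted p = 0.0435) and without WT replicate 1 (adjusted p = 0.0360), over a range of 0.0360 to 0.673. Within each library the ratio of ATF6 to EIF2AK3 counts was 2.16 ± 0.214 in OE and 5.77 ± 0.141 in the WT-labelled libraries, a ratio that does not depend on scaling; the pairs of genes set in ratio here were chosen after the values were seen.

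All 10 chaperones and cofactors fell, and none of their group ranges overlapped. Of all tested genes 35.7% fell, 77.3% had separate ranges, and 37.4% had every OE library below every WT-labelled library. With library totals 8 of the 10 were called lower. HSPA5 (chr9:125234853-125241330, minus strand), the ER member of the HSP70 family and a known ATF6 target, measured 746, 722 and 679 CPM in the OE libraries, against 1629, 1804 and 1595 CPM in the WT-labelled libraries. The groups were far apart, with a log2 fold change of -1.23 (SE 0.07, adjusted p = 7.81e-08), a level 2.34-fold lower. HYOU1 (chr11:119044189-119057202, minus strand), the large HSP70 relative that exchanges nucleotide on BiP, measured 133, 128 and 118 CPM in the OE libraries, against 444, 521 and 418 CPM in the WT-labelled libraries. This was the deepest fall among the chaperones, at -1.87 on the log2 scale (SE 0.09, adjusted p = 1.95e-08), a level 3.65-fold lower.

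HSP90B1 (chr12:103930107-103953645, plus strand), encoding GRP94, the ER form of HSP90, measured 973, 1044 and 955 CPM in the OE libraries, against 1349.8, 1349.8 and 1264 CPM in the WT-labelled libraries. Its fall was shallower than that of BiP, at -0.42 on the log2 scale (SE 0.07, adjusted p = 0.000166), with the groups still apart. The J-domain cofactors of BiP fell to different extents: DNAJB9 (ERdj4) by 0.71, DNAJC3 (P58IPK) by 0.66, DNAJB11 (ERdj3) by 0.51 and DNAJC10 (ERdj5, also a disulfide reductase) by 0.24 on the log2 scale. SDF2L1, which works with DNAJB11, fell by 0.74, at 16.6, 16.1 and 15.6 CPM in the OE libraries, against 26.7, 28.3 and 25.6 CPM in the WT-labelled libraries. CRELD2, a secreted ER stress protein, fell by 0.66, and MANF, a BiP-binding secreted factor, fell by 0.26 with 53.5 ± 6.51 CPM in the OE libraries and 64.2 ± 3.31 CPM in the WT-labelled libraries (SD, n = 3 each).

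The calls for the smallest of these falls rested on the scaling or on 1 library. DNAJC10 did not pass with library totals (adjusted p = 0.142, range 0.00401 to 0.142 over the alternatives, against 0.00898). MANF, at an adjusted p of 0.0269, did not pass with library totals (0.166), without OE replicate 3 (0.100) or without WT replicate 1 (0.0699), over a range of 0.00404 to 0.166. The summed chaperone level was 2195 ± 83.5 CPM in the OE libraries and 3942 ± 204 CPM in the WT-labelled libraries (SD, n = 3 each), a 1.80-fold difference and the largest of the 6 roles. HSP90B1, DNAJB9, DNAJB11 and CRELD2 overlap genes of the opposite strand by gene position. Whether these genes share exons with those neighbours was not tested. Reads from any shared exons could not be told apart without knowing how strand was handled, and their part in the counts was not tested. The neighbours of DNAJB9, PNPLA8 and THAP5, averaged 31.4 and 38.6 CPM in OE and 35.2 and 42.1 CPM in WT, above the 13.8 ± 2.59 CPM in OE and 22.4 ± 2.41 CPM in WT of DNAJB9 itself. The other such neighbours ranged from 9.45 to 23.6 CPM in OE and from 13.0 to 21.8 CPM in WT.

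**Figure D2:**
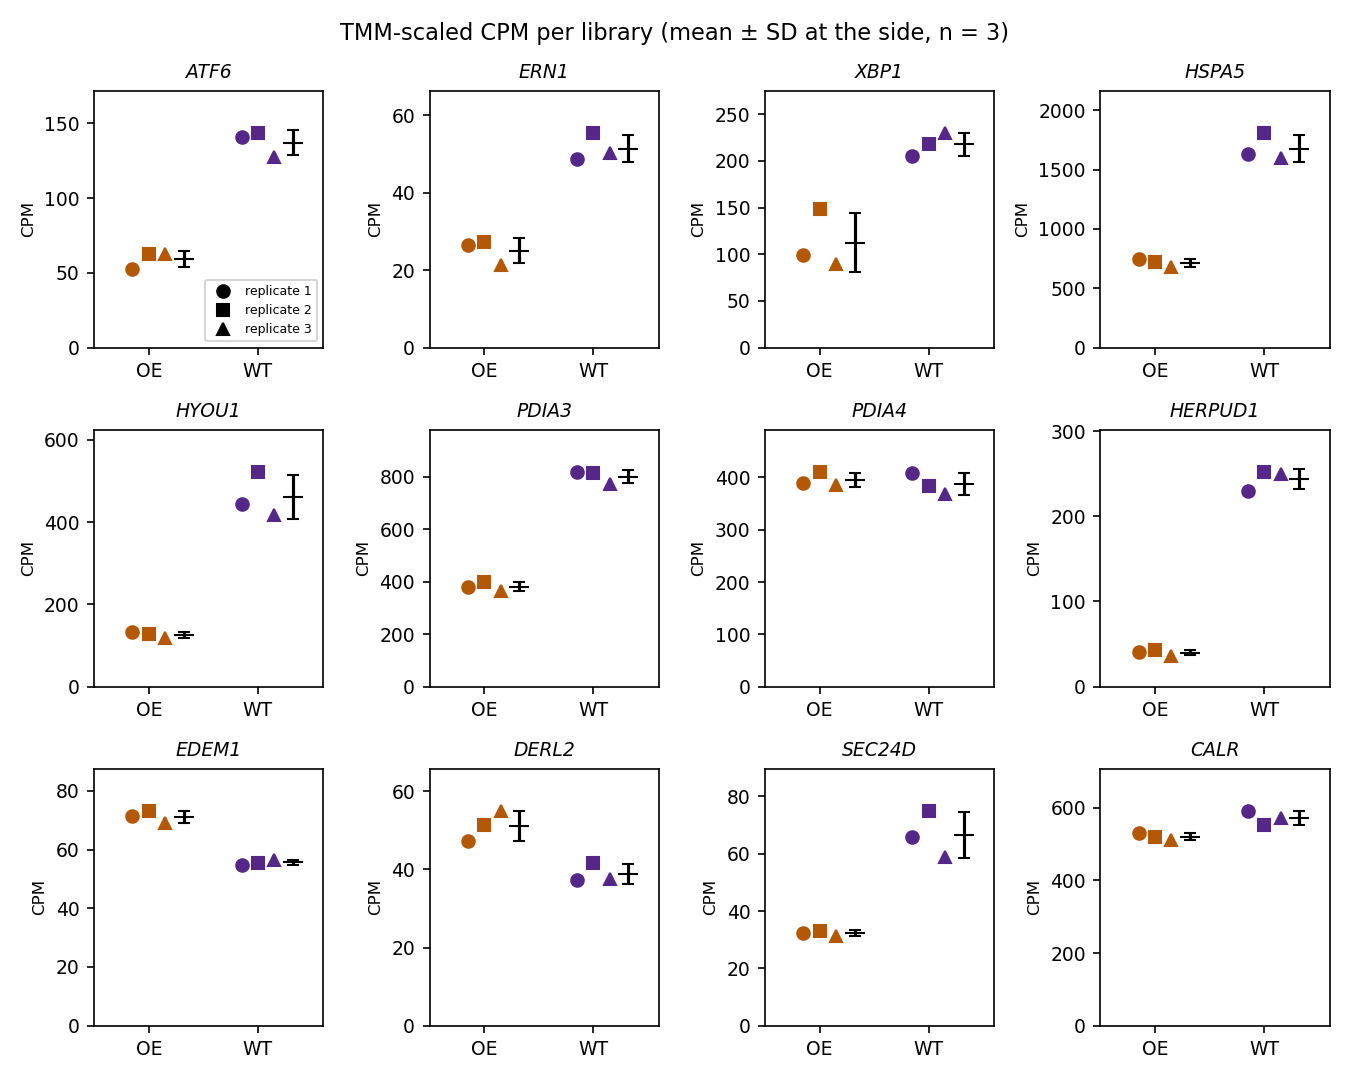
TMM-scaled CPM of 12 listed genes in each of the 6 libraries, OE on the left and the libraries labelled wild type on the right of each panel, with one marker shape per replicate number, the mean and SD (n = 3) at the side and axes that start at 0. Groups are apart in every panel except PDIA4; XBP1 has a wide spread in OE, where replicate 2 reaches 148 CPM.

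Among the 5 oxidoreductases, which form and rearrange disulfide bonds, 3 fell and 2 did not pass, where 35.7% of all tested genes fell. PDIA3 (chr15:43746392-43773279, plus strand), the isomerase ERp57 that works on glycoproteins with calnexin and calreticulin, measured 379, 400.5 and 364 CPM in the OE libraries, against 817, 813 and 772 CPM in the WT-labelled libraries. The groups were far apart, with a log2 fold change of -1.07 (SE 0.07, adjusted p = 1.09e-07). PDIA4 (chr7:149003062-149028641, minus strand), encoding the related isomerase ERp72, measured 389, 409.7 and 385 CPM in the OE libraries, against 409, 384 and 369 CPM in the WT-labelled libraries. These groups overlapped (log2 fold change 0.03, SE 0.07, adjusted p = 0.729). The ratio of PDIA3 to PDIA4 counts within a library was 0.966 ± 0.0174 in OE and 2.07 ± 0.0632 in the WT-labelled libraries, and that of HSPA5 to PDIA4 was 1.81 ± 0.0903 in OE and 4.34 ± 0.355 in the WT-labelled libraries (SD, n = 3 each).

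P4HB, the founding protein disulfide isomerase, averaged 758 ± 32.2 CPM in the OE libraries and 1143 ± 78.3 CPM in the WT-labelled libraries, and fell by 0.59 on the log2 scale (SE 0.07). PDIA6, encoding P5, which associates with BiP, averaged 458 ± 9.92 CPM in the OE libraries and 612 ± 19.1 CPM in the WT-labelled libraries, and fell by 0.42. ERO1B, an oxidase that recharges the isomerases, measured 17.4, 23.8 and 16.3 CPM in the OE libraries, against 24.9, 26.7 and 21.5 CPM in the WT-labelled libraries. OE replicate 2 lay within the other group, and the gene did not pass (adjusted p = 0.0535). With the replicate number as a block it passed (adjusted p = 0.00880), as it did without OE replicate 2 (0.00282), without WT replicate 3 (0.0253) and with no filter on low counts (0.0050), over a range of 0.00282 to 0.188. ERO1B overlaps GPR137B on the opposite strand, which averaged 8.02 CPM in OE and 2.28 CPM in WT.

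In the lectin cycle, calnexin and calreticulin hold glycoproteins for folding and UGGT1 returns unfolded ones to them by adding glucose. CANX (chr5:179678628-179730925, plus strand), the membrane-bound calnexin, measured 1284, 1273 and 1289 CPM in the OE libraries, against 1956, 2104 and 1953 CPM in the WT-labelled libraries. The groups were apart and the OE libraries nearly equal, with a log2 fold change of -0.64 (SE 0.06, adjusted p = 3.57e-06). UGGT1 (chr2:128091200-128195677, plus strand) measured 167, 196 and 192 CPM in the OE libraries, against 289, 297 and 288 CPM in the WT-labelled libraries, and fell by 0.66 on the log2 scale (SE 0.07, adjusted p = 1.43e-05). CALR (chr19:12938578-12944489, plus strand), the soluble calreticulin, measured 531, 519 and 512 CPM in the OE libraries, against 590.0, 552 and 573 CPM in the WT-labelled libraries.

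The CALR groups did not overlap, but its log2 fold change of -0.13 (SE 0.06) did not pass (adjusted p = 0.0670). It passed with the replicate block (adjusted p = 0.0454), in the DESeq2 Wald test (0.0455) and without WT replicate 2 (0.0326), over a range of 0.0326 to 0.762. The ratio of CALR to CANX counts within a library was 0.406 ± 0.00838 in OE and 0.286 ± 0.0206 in the WT-labelled libraries (SD, n = 3 each), so these partners did not move in proportion.

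The 11 degradation genes were the most divided role: 5 fell (45.5%), 2 rose (18.2%) and 4 did not pass. Over all tested genes 35.7% fell and 38.3% rose. With library totals 3 of the degradation genes fell and 3 rose. HERPUD1 (chr16:56932048-56944863, plus strand), a membrane scaffold of the HRD1 ubiquitin ligase complex, measured 40.9, 42.5 and 36.4 CPM in the OE libraries, against 230.1, 251 and 249 CPM in the WT-labelled libraries. It had the deepest fall of the listed genes with ample reads, at -2.61 on the log2 scale (SE 0.08, adjusted p = 4.89e-10), a level 6.10-fold lower. SYVN1, encoding the HRD1 ligase itself, averaged 59.4 ± 5.38 CPM in the OE libraries and 51.8 ± 3.67 CPM in the WT-labelled libraries, with overlapping groups. It shares its position with more abundant genes, FAU on the same strand (165 CPM in OE, 156 CPM in WT) and MRPL49 on the opposite strand (68.5 CPM in OE, 66.8 CPM in WT). The ratio of HERPUD1 to SYVN1 counts within a library was 0.675 ± 0.0626 in OE and 4.72 ± 0.315 in the WT-labelled libraries (SD, n = 3 each).

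SYVN1, at a log2 fold change of 0.20, did not pass (adjusted p = 0.0611) but did in 6 of the 12 alternatives, among them the replicate block (adjusted p = 0.0465), library totals (0.00670), and leaving out OE replicate 3 (0.0479) or WT replicate 2 (0.0365), over a range of 0.00670 to 0.252. SEL1L, its adaptor, averaged 173 ± 12.4 CPM in the OE libraries and 199 ± 26.6 CPM in the WT-labelled libraries (adjusted p = 0.0821); it passed with the replicate block (0.0153), with no filter (0.0147), without OE replicate 2 (0.0475) and without WT replicate 1 (0.0352), over a range of 0.0147 to 0.414. OS9, a lectin that brings glycoproteins to the ligase, averaged 189 ± 16.6 CPM in the OE libraries and 262 ± 24.8 CPM in the WT-labelled libraries, and fell by 0.47. SELENOS, a selenoprotein that recruits the ATPase p97, averaged 41.0 ± 1.42 CPM in the OE libraries and 51.0 ± 7.91 CPM in the WT-labelled libraries, and fell by 0.31 (adjusted p = 0.0201). That call did not hold with library totals (adjusted p = 0.0965), without OE replicate 1 (0.0608), without OE replicate 3 (0.0602) or without WT replicate 2 (0.0662), over a range of 0.00111 to 0.0965.

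The EDEM genes encode mannosidase-like proteins that mark glycoproteins for removal, and the 3 of them did not move together. EDEM1 (chr3:5187646-5219957, plus strand) measured 71.4, 73.0 and 69.0 CPM in the OE libraries, against 54.9, 55.5 and 56.4 CPM in the WT-labelled libraries. It rose by 0.36 on the log2 scale (SE 0.07, adjusted p = 0.000512) with narrow, separate groups. EDEM2 averaged 47.7 ± 2.33 CPM in the OE libraries and 45.2 ± 4.05 CPM in the WT-labelled libraries, and did not pass (adjusted p = 0.421). EDEM3 averaged 40.7 ± 4.35 CPM in the OE libraries and 50.3 ± 5.10 CPM in the WT-labelled libraries; it fell by 0.31 (adjusted p = 0.0183) although the groups overlapped.

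The EDEM3 call was lost with library totals (adjusted p = 0.0942), without OE replicate 1 (0.0752), without OE replicate 3 (0.0651) and without WT replicate 2 (0.0661), over a range of 0.00143 to 0.0942. The ratio of EDEM1 to EDEM3 counts within a library was 1.76 ± 0.151 in OE and 1.11 ± 0.126 in the WT-labelled libraries (SD, n = 3 each), with no overlap.

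The derlins are membrane proteins of the channel through which misfolded chains leave the ER. DERL2 (chr17:5471251-5486811, minus strand) measured 47.3, 51.3 and 54.9 CPM in the OE libraries, against 37.4, 41.7 and 37.4 CPM in the WT-labelled libraries. It rose by 0.40 on the log2 scale (SE 0.08, adjusted p = 0.00149), and it overlaps MIS12 on the opposite strand, which averaged 31.6 CPM in OE and 45.8 CPM in WT. DERL1 averaged 92.1 ± 2.37 CPM in the OE libraries and 95.3 ± 9.88 CPM in the WT-labelled libraries, with overlapping groups (adjusted p = 0.597), and overlaps TBC1D31 on the opposite strand, at 26.0 CPM in OE and 47.7 CPM in WT. DERL3 (chr22:23834503-23839128, minus strand), a derlin of secretory tissues, had 1 read in the OE libraries together and 48 reads in the WT-labelled libraries, where it measured 0.607, 0.819 and 0.922 CPM. The ratio of depth-scaled counts (WT over OE) was 54.8, with a 95% interval of 9.37 to 2208 that covers counting error only (adjusted p = 9.46e-05), and the gene overlaps SMARCB1, at 57.7 CPM in OE and 79.2 CPM in WT. DERL3 passed the filter on low counts only through the WT-labelled libraries, so its lower call, 1 of the 5 among the degradation genes, is not independent of that filter.

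Of the genes of import and export, SEC24D (chr4:118722823-118838683, minus strand), a cargo-binding subunit of the COPII coat, measured 32.4, 33.2 and 31.1 CPM in the OE libraries, against 66.0, 74.8 and 58.9 CPM in the WT-labelled libraries. The groups were far apart, with a log2 fold change of -1.04 (SE 0.09, adjusted p = 2.40e-06). SEC61B, a small subunit of the translocon, averaged 58.4 ± 2.17 CPM in the OE libraries and 64.7 ± 4.86 CPM in the WT-labelled libraries, and did not pass (adjusted p = 0.107); it passed without WT replicate 3 (0.0301), over a range of 0.0301 to 0.704.

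Read beside the promoter sites, the 11 listed genes with ERSE or ERSE-II comprised 9 that fell, none that rose and 2 that did not pass (ERO1B and CALR), at a median log2 fold change of -0.66. The 21 listed genes with a window and neither element comprised 12 that fell, 2 that rose and 7 that did not pass, at a median of -0.26. All tested genes comprised 35.7% that fell and 38.3% that rose. HYOU1 and HERPUD1, which carry ERSE-II, had the deepest falls among listed genes with a window, and the third gene with it, SDF2L1, fell by 0.74 on the log2 scale. Over all 14 tested genes with ERSE-II, these 3 included, 35.7% fell and 35.7% rose, at a median of -0.07. ATF6 and ERN1 fell more than 2-fold with neither element in their windows. Among 19 other tested genes with either element, 5 fell, 7 rose and 7 did not pass, at a median of 0.02. Of those, FICD, which modifies BiP, averaged 6.21 ± 0.729 CPM in the OE libraries and 11.1 ± 1.28 CPM in the WT-labelled libraries and fell by 0.83. SERP1, a translocon-associated protein, fell by 0.50, whereas NUCB1 averaged 224 ± 21.5 CPM in the OE libraries and 138 ± 9.03 CPM in the WT-labelled libraries and rose by 0.70; these genes were picked after their values were seen.

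**Figure D3:**
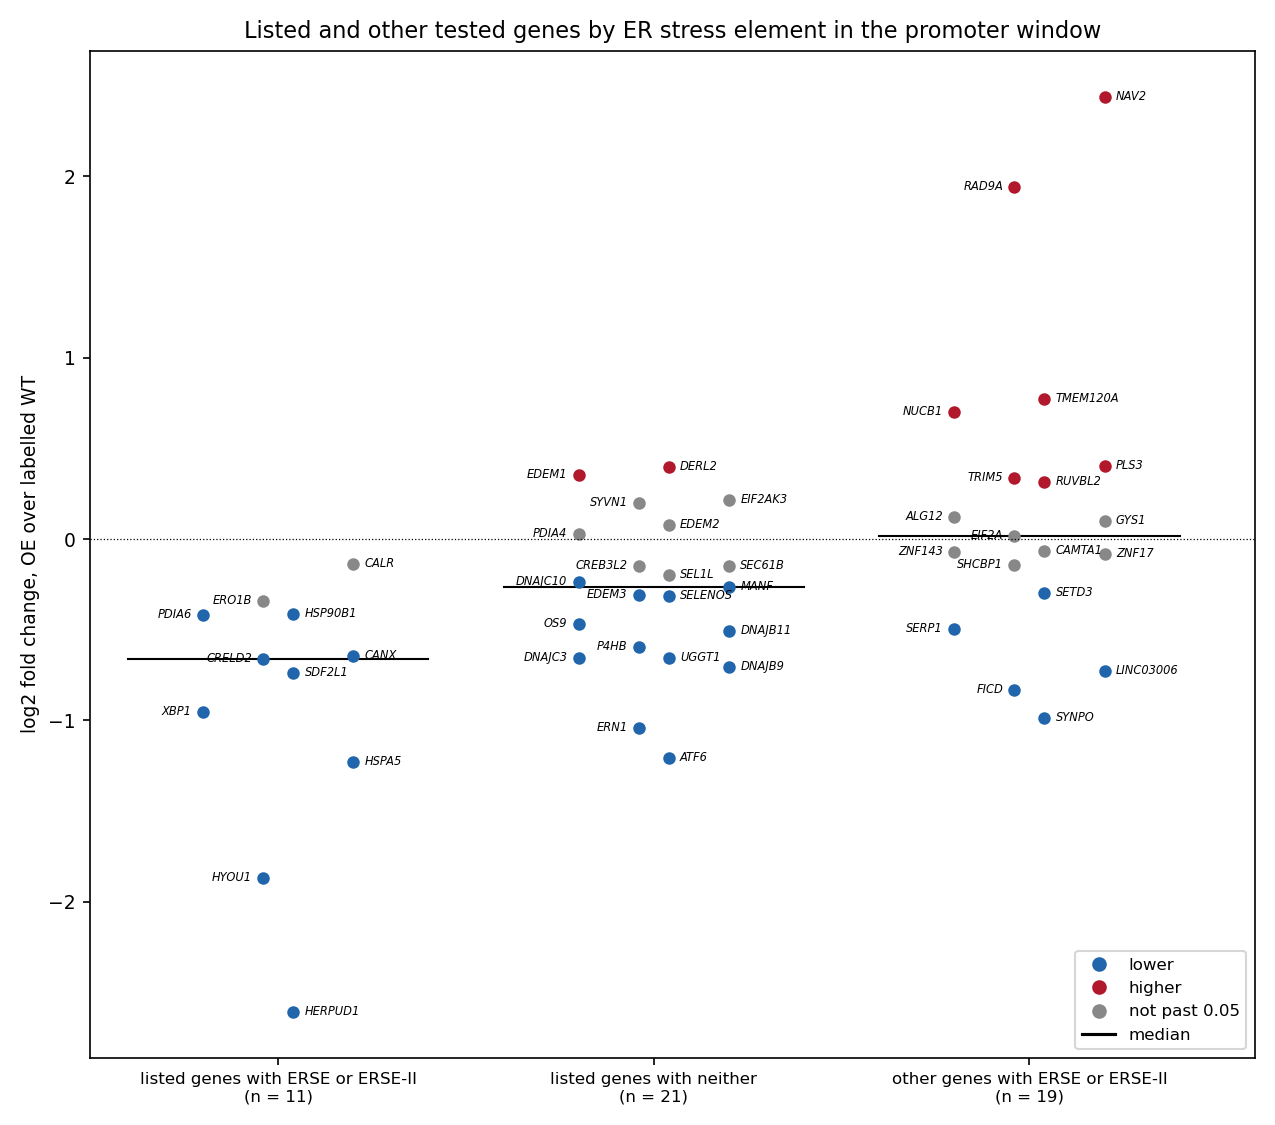
Log2 fold change (OE over the libraries labelled wild type) of the listed genes with ERSE or ERSE-II in the promoter window, the listed genes with neither, and the other tested genes with either element, with one point per gene and a line at each median. The medians are -0.66, -0.26 and 0.02, and the other genes with an element lie on both sides of 0.

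Other short motifs were searched on both strands of the same windows. The UPRE core TGACGTG was found in HYOU1 and DNAJC10 (6.25% of the listed genes, 2.40% of all genes with a window). The cyclic AMP response element TGACGTCA was found in CREB3L2 (3.13% of the listed genes, 2.25% of all). TTGCATCA, a form of the element that ATF4 binds, was found in HERPUD1 (3.13% of the listed genes, 1.08% of all). ACGTG, the core of the element that hypoxia-inducible factors with HIF-1β bind, was found in 16 of the 32 listed genes (50%) and in 24.9% of all genes with a window. Of those 16 genes 12 fell and none rose, at a median log2 fold change of -0.42, and of the 16 listed genes with a window and no ACGTG 9 fell and 2 rose, at a median of -0.43. Over all 3648 tested genes with ACGTG, 41.0% fell and 34.9% rose. ACGTG lies inside the UPRE core and overlaps the end of the ERSE-II sites of HYOU1 and HERPUD1, where CCACG is followed by a T, so these counts are not separate.

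Chaperones of other compartments, with cofactors and the transcription factor HSF1, were read from a list of 35 genes. Of 34 tested, 14 rose (41.2%), 11 fell (32.4%) and 9 did not pass, shares near the 38.3% and 35.7% of all tested genes, at a median log2 fold change of 0.02, and with library totals 16 rose and 8 fell. The compartments were separated after the values were seen. Of 28 tested genes of the list outside the mitochondrial set, called cytosolic here, 14 rose and 7 fell, with a median of 0.16. With library totals 15 of them rose and 4 fell. HSPB1, the small heat shock protein HSP27, measured 407, 385 and 349 CPM in the OE libraries, against 78.0, 71.5 and 77.5 CPM in the WT-labelled libraries. It rose 5.03-fold (log2 fold change 2.33, SE 0.08, adjusted p = 1.06e-09). DNAJA1, a cytosolic J-domain partner of HSP70, averaged 374 ± 21.3 CPM in the OE libraries and 90.7 ± 8.17 CPM in the WT-labelled libraries and rose 4.12-fold. The stress-inducible HSPA1A and HSPA1B were both called higher, at log2 fold changes of 2.76 and 2.01, but they are near-identical copies between which reads can be exchanged.

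HSPA8, the constitutive cytosolic HSP70, named after its values were seen, averaged 1427 ± 75.8 CPM in the OE libraries and 425 ± 65.2 CPM in the WT-labelled libraries, and rose by 1.75 on the log2 scale. Within a library the ratio of HSPA5 to HSPA8 counts was 0.507, 0.539 and 0.461 in OE, against 3.30, 4.31 and 4.39 in the WT-labelled libraries, a 7.96-fold difference in the balance of the ER and cytosolic family members. The ratio of HSP90B1 to HSP90AA1 counts was 0.435 ± 0.0706 in OE and 0.851 ± 0.155 in the WT-labelled libraries. HSP90AA1, a cytosolic HSP90, rose by 0.54.

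Of 6 tested mitochondrial chaperones, 4 fell, none rose and 2 did not pass, with a median of -0.78. All tested genes had 35.7% lower and 38.3% higher. With library totals 4 of the mitochondrial chaperones fell and 1 rose. HSPD1, the mitochondrial HSP60, averaged 1068 ± 75.0 CPM in the OE libraries and 2071 ± 97.8 CPM in the WT-labelled libraries and fell by 0.96. HSPA9, the mitochondrial HSP70, named after its values were seen, measured 711, 683 and 722 CPM in the OE libraries, against 1856, 1884 and 1818 CPM in the WT-labelled libraries. It fell by 1.39 on the log2 scale, and the ratio of HSPA5 to HSPA9 counts, 1.02 ± 0.0651 in OE and 0.904 ± 0.0461 in the WT-labelled libraries, overlapped between the groups.

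**Figure D4:**
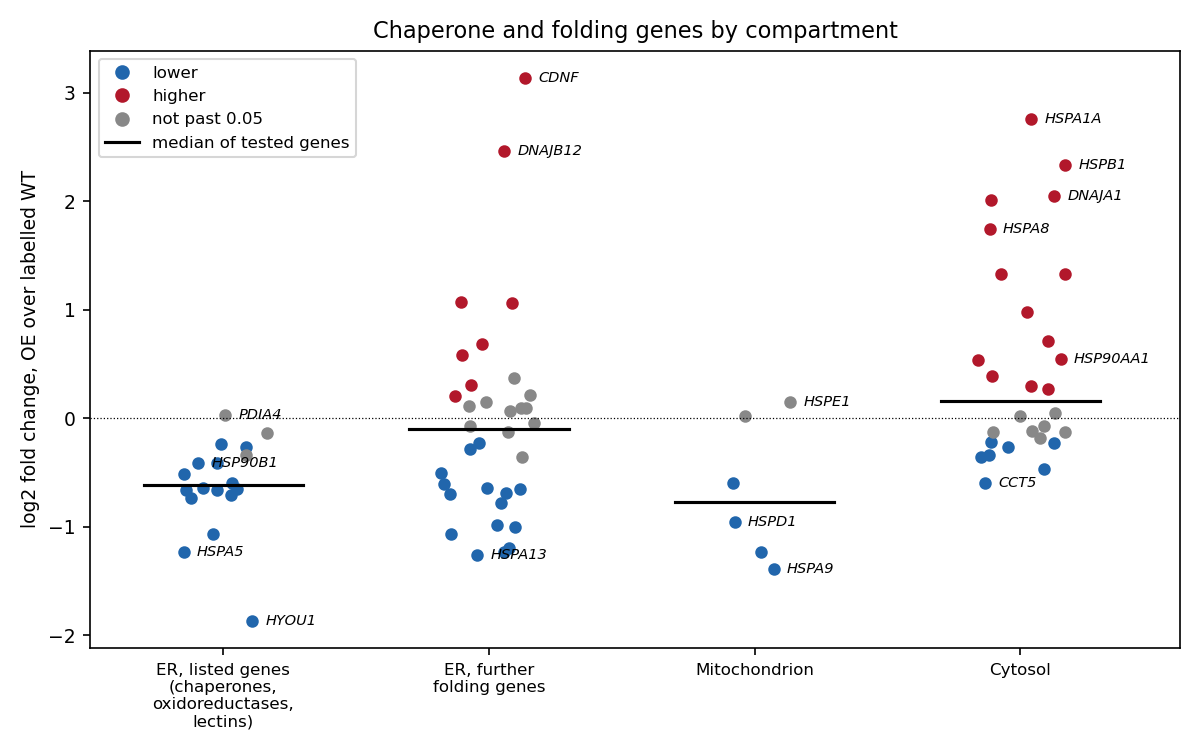
Log2 fold change (OE over the libraries labelled wild type) of folding genes by compartment, with one point per tested gene, coloured by call, and a line at each median; the first column holds the 18 listed chaperones, oxidoreductases and lectin cycle genes. The cytosolic column reaches 2.76 (HSPA1A). The highest of the listed ER genes is PDIA4 at 0.03 and the lowest is HYOU1 at -1.87. The further ER folding genes lie on both sides of 0, from -1.26 (HSPA13) to 3.14 (CDNF), with a median of -0.10.

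Further genes of the same pathway, outside the 36, were read from lists, beside the shares of all tested genes, of which 35.7% fell and 38.3% rose. The genes downstream of PERK or around eIF2 were the most uniform: of 17 tested, 15 fell and 2 rose, with a median log2 fold change of -0.92. DDIT3, encoding the stress factor CHOP, measured 7.90, 5.53 and 4.92 CPM in the OE libraries, against 82.8, 93.2 and 101.9 CPM in the WT-labelled libraries, a level 15.1-fold lower (log2 fold change -3.92, adjusted p = 3.34e-09). CHAC1, a glutathione-degrading enzyme, averaged 5.95 ± 1.63 CPM in the OE libraries and 73.6 ± 12.3 CPM in the WT-labelled libraries and was 12.4-fold lower. TRIB3, a pseudokinase induced by ATF4 and CHOP, averaged 72.9 ± 9.78 CPM in the OE libraries and 721 ± 12.8 CPM in the WT-labelled libraries and was 9.88-fold lower. ATF4 itself averaged 319 ± 26.4 CPM in the OE libraries and 756 ± 53.1 CPM in the WT-labelled libraries, and SESN2, a stress-induced inhibitor of mTORC1, fell by 2.78 on the log2 scale. EIF2AK3 mRNA, which encodes PERK, did not pass, and its level gives no measure of the activity of the kinase.

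Of 37 tested genes of the translocon, signal recognition and N-glycosylation, 25 fell, 7 rose and 5 did not pass, with a median of -0.36. With library totals 20 fell and 9 rose, at a median of -0.25. SSR4, a translocon-associated protein, averaged 70.2 ± 1.73 CPM in the OE libraries and 155 ± 12.5 CPM in the WT-labelled libraries, and RPN2, a subunit of the oligosaccharyltransferase, fell by 0.78. Against that direction SEC61G, a small translocon subunit, rose 2.67-fold, TRAM1, which assists translocation, rose 2.61-fold and SEC61A2, the minor form of the translocon channel, rose 2.41-fold. GANAB, the catalytic subunit of glucosidase II, fell by 0.21.

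Of 34 further folding genes tested, 15 fell, 8 rose and 11 did not pass, with a median of -0.10, and with library totals 14 fell and 12 rose. HSPA13, an ER-associated HSP70 relative, fell by 1.26, FKBP10, a prolyl isomerase of collagen folding, fell by 1.23, PPIB, the ER cyclophilin, fell by 0.65 and RCN1, a calcium-binding protein of the lumen, fell by 0.65. DNAJB12, a J protein of the ER membrane that faces the cytosol, averaged 62.9 ± 2.78 CPM in the OE libraries and 11.3 ± 2.17 CPM in the WT-labelled libraries and rose 5.57-fold. CDNF, a relative of MANF, rose at low level, with 1.22 ± 0.462 CPM in the OE libraries and 0.130 ± 0.159 CPM in the WT-labelled libraries.

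Of 34 further degradation genes, 15 fell, 8 rose and 11 did not pass, with a median of -0.09, and with library totals 13 fell and 12 rose. VCP, the ATPase p97 that pulls chains out of the membrane, averaged 761 ± 46.3 CPM in the OE libraries and 406 ± 7.89 CPM in the WT-labelled libraries and rose 1.87-fold. TMUB2, a ubiquitin-like membrane protein, rose 2.53-fold. RAD23B, a ubiquitin shuttle factor, fell by 0.81, and UBE2J2, a conjugating enzyme of the ER membrane, fell by 0.91.

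The COPII and retrieval genes were nearly balanced, with 13 that fell, 11 that rose and 6 that did not pass of 30 tested, at a median of -0.11. With library totals 11 fell and 11 rose. KDELR1, the receptor that returns escaped chaperones to the ER, measured 348, 341 and 327 CPM in the OE libraries, against 148, 139.8 and 133 CPM in the WT-labelled libraries. It rose 2.41-fold and KDELR3 rose 2.02-fold, while KDELR2, the other such receptor, named after its values were seen, averaged 222 ± 11.7 CPM in the OE libraries and 228 ± 2.21 CPM in the WT-labelled libraries and did not pass (adjusted p = 0.580). ERGIC1, a protein of the ER-Golgi intermediate compartment, rose 1.56-fold, the coat gene SEC31B rose 3.37-fold, and TMED2, a cargo adaptor, fell by 0.16. SEC16B, a scaffold of ER exit sites, had 179 reads in the OE libraries and 2 in the WT-labelled libraries, a depth-scaled ratio (OE over WT) of 78.4 with a 95% interval of 21.4 to 653.

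Further transducers, 10 of 12 tested, comprised 4 that rose, 2 that fell and 4 that did not pass, with a median of 0.04. CREB3L4 rose 2.72-fold, and CREB3 averaged 40.2 ± 0.708 CPM in the OE libraries and 19.4 ± 1.00 CPM in the WT-labelled libraries and rose 2.07-fold; both encode membrane-bound factors related to ATF6. The Golgi proteases that release ATF6 moved apart: MBTPS1 (site-1 protease) rose by 0.39 and MBTPS2 (site-2 protease) fell by 0.66. WFS1, a regulator of ATF6 turnover, rose 2.21-fold.

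**Figure D5:**
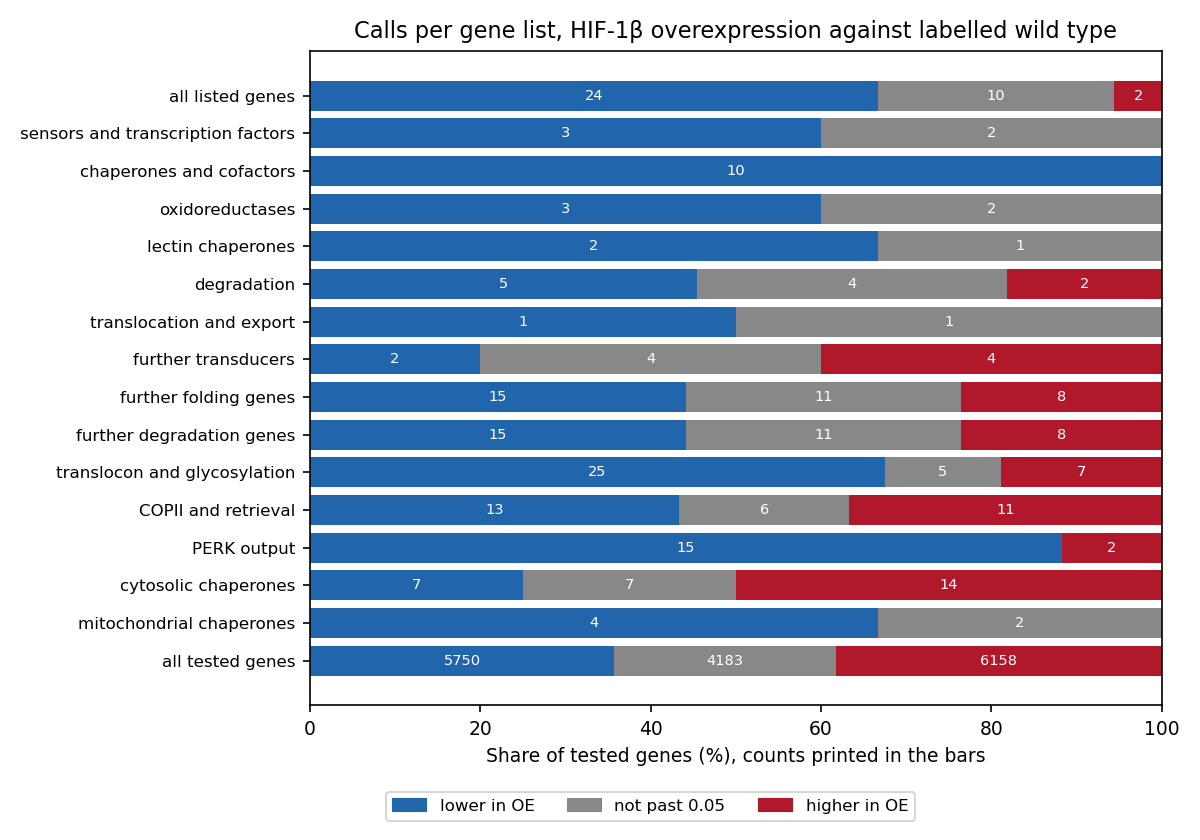
Share of tested genes called lower, not called or called higher in OE against the libraries labelled wild type, for the 36 listed genes, each role, the further gene lists and all 16091 tested genes, with counts in the bars. All 10 chaperones and cofactors are called lower, and the genes downstream of PERK or around eIF2 are 15 lower of 17. The cytosolic chaperones and cofactors are 14 higher of 28, and all tested genes split into 5750 lower and 6158 higher.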

How the data were processed

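The authors deposited estimated counts per gene; the name of the table credits salmon. The submitters' processing notes name bcl2fastq 2.20 and GRCh38; the sources used here give no salmon version, annotation or strand setting. Per the labels, RNA was polyA by one field and from a stranded ribosomal-depletion kit by another. Up to 9.51% of values per library were not whole (tolerance 1e-06), and the deposited expected counts were rounded. Another 6 columns of per-sample values match no sample and were not used. Reference tables gave symbols for 61481 of 78932 IDs (77.9%) and GENCODE 29 positions.

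Genes were kept by filterByExpr (smallest count 10), scaled by TMM (factors 1.03 to 1.05 in OE, 0.948 to 0.977 in WT) and tested with the edgeR 4.0.16 quasi-likelihood F test (R 4.3.3) with Benjamini-Hochberg adjustment at 0.05. The common biological coefficient of variation was 0.106. A standard error is the log2 fold change divided by the square root of F. Folds are ratios of mean CPM. On simulated data with 15794 genes, 86.6% of 2-fold and 52.6% of 1.5-fold changes were recovered, and 0.0192% of unchanged genes were called. The simulation changed 200 genes and gave all genes the same dispersion. In the data 74.0% of tested genes passed, so the simulated rates need not hold for this comparison. No label ties the libraries of a group to separate cultures; the p-values then reflect only their spread, which may be technical. Replicates of a group differed by more than sampling noise.

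The batch label repeats the replicate number, which pairs libraries across groups; same-numbered libraries correlated at 0.00134, 0.0963 and 0.0220 in their deviations. Alternatives were DESeq2 size factors, library totals, the DESeq2 1.42.0 Wald test, other filters, a replicate block and leaving out each library. The 36 genes and all lists were chosen with earlier results of these data known. Beside the 36 genes, the text names up to 4 genes a list with the largest fold change among called genes with separate groups and up to 2 of the highest level; other names are said to be chosen later, and 1 gene that the rule names is not reported here.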

Additional observations from a re-analysis of the deposited data

How the results depend on the processing

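Across 12 alternatives (2 scalings, a second test, 2 filters, the replicate block and 6 fits without 1 library each), 19 of the 24 lower calls and both higher calls held in every one, and that of DERL3 held in the 11 that could be fitted. With library totals only, 20 genes were lower and 4 higher, and the median log2 fold change was -0.33 in place of -0.44; that scaling raises the median of all tested genes too. The replicate block gave 27 lower and 3 higher calls, at a median of -0.44, and changed no call beyond those of ERO1B, CALR, SEL1L and SYVN1. The other scaling, test and filters gave 23 to 26 lower and 2 or 3 higher calls. Without 1 library each, 21 to 27 genes were lower, 2 to 3 higher, and the median was -0.52 to -0.41. Genes near 0 changed sign without a call: DERL1 stood at 0.0649 with library totals, and at -0.117 to 0.0302 over the fits without 1 library, where it was above 0 without WT replicate 2. PDIA4 stood at -0.0269 to 0.0478 over those fits, below 0 without WT replicate 3 and, at -0.0040, without OE replicate 2. EDEM2 stood at -0.0018 to 0.127, below 0 without WT replicate 3. DERL3 could not be fitted with the filter of CPM above 1, which it does not pass. Depth limits DERL3, CDNF and SEC16B most, each with few reads in a group.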
